A study of Homo sapiens with 12 samples.

Results

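Transcripts of 10 genes that hold B cells inside the germinal centre, or steer them within and out of the follicle, were read from the messenger RNA of SUDHL6 cells, an established human line of diffuse large B-cell lymphoma of the germinal centre type. The genes were taken by symbol (S1PR1, S1PR2, S1PR4, P2RY8, GNA13, RGS13, GPR183, CXCR4, CXCR5 and CCR7), and all 10 were found among the 23368 symbols of the count tables. The 4 groups were cells in 200 nM GSK591 for 96 h, cells in vehicle for 96 h, cells in 200 nM GSK591 for 24 h and cells in vehicle for 24 h. Vehicle was 0.01% DMSO, and each group held 3 libraries, 12 in all. GSK591 is a small-molecule inhibitor of PRMT5, an enzyme that places symmetric dimethyl marks on arginines of proteins. Whether the 3 libraries of a group stem from different cultures is not in the labels; the p-values therefore describe the spread among these libraries, which may be technical, in 1 cell line.

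Germinal centre B cells stay together through receptors that act against migration and move between zones through receptors that follow chemokines. S1PR2, which binds sphingosine 1-phosphate, and P2RY8 both signal through Gα13, encoded by GNA13, which restrains movement. CXCR5 follows CXCL13 into the follicle, CXCR4 follows CXCL12 towards the dark zone, CCR7 follows CCL19 and CCL21 towards the T cell zone, GPR183 follows oxysterols to the follicle's outer rim, and S1PR1 leads lymphocytes out of the tissue. RGS13 is a germinal centre protein that speeds the shut-off of G proteins below chemokine receptors.

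For the 4 genes the results turn on, 1 RefSeq promoter window each is given, to show which core promoter letters these genes have (GRCh38.p14, from 250 bases before to 50 bases after a transcript start, 300 bases, written 5′ to 3′ on the gene's own strand): the 3 receptors that were higher with GSK591 at 96 h, and P2RY8, whose count could not be read as a level. Capitals mark, on either strand, the TATA box letters TATAAA, the box named for its letters CCAAT, and the octamer given below. The windows lie at chr19:10231282-10231581 for S1PR2 (minus strand), chr2:136118100-136118399 for CXCR4 (minus strand), chr11:118893142-118893441 for CXCR5 (plus strand) and chrX:1537136-1537435 for P2RY8 (minus strand).
S1PR2: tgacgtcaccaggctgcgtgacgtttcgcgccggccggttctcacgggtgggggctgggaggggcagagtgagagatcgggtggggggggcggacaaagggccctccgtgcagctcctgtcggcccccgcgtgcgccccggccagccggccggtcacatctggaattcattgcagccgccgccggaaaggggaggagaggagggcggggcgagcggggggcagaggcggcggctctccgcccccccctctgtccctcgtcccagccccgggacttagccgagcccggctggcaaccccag
CXCR4: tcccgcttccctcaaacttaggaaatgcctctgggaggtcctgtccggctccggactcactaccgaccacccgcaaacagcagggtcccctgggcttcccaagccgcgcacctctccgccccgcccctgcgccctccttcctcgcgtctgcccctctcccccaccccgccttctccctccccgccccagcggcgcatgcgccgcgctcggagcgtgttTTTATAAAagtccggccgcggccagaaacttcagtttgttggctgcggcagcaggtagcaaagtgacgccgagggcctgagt
CXCR5: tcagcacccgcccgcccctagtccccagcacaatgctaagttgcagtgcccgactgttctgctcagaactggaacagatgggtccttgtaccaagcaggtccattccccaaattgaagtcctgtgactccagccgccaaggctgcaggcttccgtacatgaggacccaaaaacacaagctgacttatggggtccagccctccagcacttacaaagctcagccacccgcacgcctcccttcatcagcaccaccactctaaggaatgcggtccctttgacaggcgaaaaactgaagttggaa
P2RY8: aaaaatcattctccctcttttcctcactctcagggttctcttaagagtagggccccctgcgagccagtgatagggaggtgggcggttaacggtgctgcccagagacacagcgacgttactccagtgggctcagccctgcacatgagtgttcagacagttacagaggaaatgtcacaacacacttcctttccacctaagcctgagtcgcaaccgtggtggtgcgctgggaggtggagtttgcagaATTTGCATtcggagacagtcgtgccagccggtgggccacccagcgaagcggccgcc
The P2RY8 window is listed with the same letters on chromosome Y. TTCNNNGAA, a pattern bound by BCL6 and STAT proteins that reads the same on both strands, was in 7.67% of the 34796 distinct promoter windows and in 0 of the 13 distinct windows of the 10 genes. TATAAA was in 11.6% of all windows and in 2 of the 13, 1 of CXCR4 and 1 of GPR183, and in the CXCR4 window it overlaps its own reverse complement just before the start. CCAAT was in 34.6% of all windows and in 4 of the 13 (of CXCR4, GNA13, RGS13 and S1PR1), and the octamer ATTTGCAT was in 1.76% and in 1 of the 13, that of P2RY8. These last 3 patterns were added after the promoters had been looked at, and a match is a description of letters, not a binding site.

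The libraries held 48.5 to 64.4 M counts (M, mega) except replicate 1 of vehicle at 96 h, with 547.9 M (10.2 times the median of the remaining 11). All 10 markers of B cells and the germinal centre had group means of at least 10.3 CPM (CPM is the usual depth-scaled unit, a gene's counts over the library total, here with TMM factors over the 12 libraries). Of 16 markers of other cell types, 15 stayed under 1 CPM in every group, and CD3D and CD2 of T cells were at 0. The remaining marker, CD68, had group means between 8.38 and 11.4 CPM and is part of the sums that follow. At 96 h the 16 summed to between 11.7 and 14.8 CPM in GSK591 libraries, against 10.2 to 11.8 CPM in vehicle libraries, and CD14 averaged 0.864 ± 0.301 CPM against 0.272 ± 0.132 CPM (SD, n = 3 each), higher by the test used below (adjusted p = 0.00751); the part of this in the results was not tested. In both groups of 96 h, replicate 2 lay farthest from the other 2 libraries. Over 8932 genes the median distance of a library from the other 2 of its group was, on the log2 scale, 0.133 for GSK591 replicate 2 and 0.0869 and 0.0778 for replicates 1 and 3. It was 0.0856 for vehicle replicate 2 and 0.0450 and 0.0555 for replicates 1 and 3, and at most 0.0381 for any library of 24 h. Counts below are also given without both replicates numbered 2.

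P2RY8, which responds to a glutathione-linked lipid and confines cells to the germinal centre, was listed with 2 counts in all 12 libraries together. One count lay in GSK591 replicate 2 at 96 h and one in vehicle replicate 1 at 96 h. Both 24 h groups were at 0, which allows up to 0.0189 CPM in GSK591 and 0.0192 CPM in vehicle by counting error alone. P2RY8 lies in the part of the X chromosome that has an identical copy on Y. All 13 other genes listed here from that region were at or near 0 as well: 11 had no count in any library, and the highest count was 2. They include CD99, a surface protein of most blood cells, and SLC25A6, a mitochondrial carrier that cells use widely, so the P2RY8 value gives no level, and no fold is given. How reads that match both copies were counted was not given in the sources used here.

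Per length of exon, the other 9 genes fell into an abundant and a scarce set. In GSK591 cells at 96 h the length-scaled level was 320 ± 42.6 CPM per kb for RGS13, 202 ± 39.0 for CXCR4, 129 ± 3.91 for GNA13, 74.1 ± 8.40 for S1PR2 and 32.7 ± 2.83 for CXCR5 (SD, n = 3). In the same cells CCR7 was at 1.80 ± 0.265 CPM per kb, GPR183 at 0.665 ± 0.266, S1PR1 at 0.403 ± 0.0813 and S1PR4 at 0.143 ± 0.0269. The 5 abundant genes are the receptors S1PR2, CXCR4 and CXCR5, RGS13, and GNA13, the G protein subunit below S1PR2. The 4 scarce ones are receptors for leaving the germinal centre or for other sites. P2RY8 is in neither set, and these roles are background, not a result of the levels. The order of the abundant set held in every group except that RGS13 and CXCR4 did not differ beyond their spread at 24 h (in GSK591 cells 213 ± 8.82 and 209 ± 13.1 CPM per kb, and in vehicle cells 191 ± 6.19 and 194 ± 10.6). Exons of BCL9L, a gene on the opposite strand, cover 88.6% of the CXCR5 exon bases in the GENCODE annotation of GRCh38. The strand setting of the counting was not given in the sources used here, so reads of CXCR5 and BCL9L cannot be told apart there. Such reads may be mixed or missed, and the part of this in the CXCR5 level per kb was not tested.

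**Figure D1:**
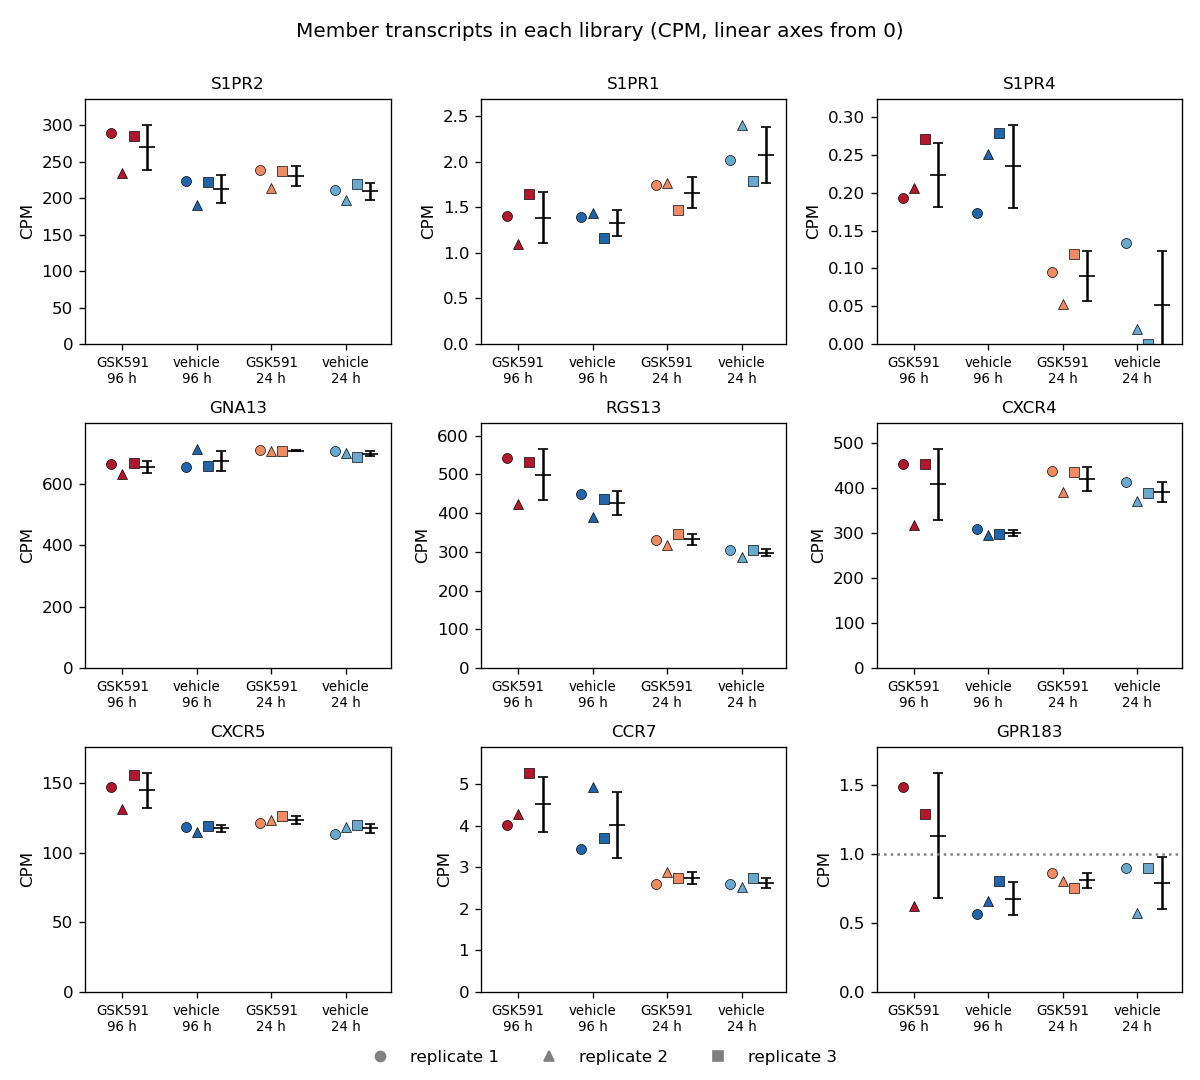
Level of each gene except P2RY8, in CPM on linear axes from 0, by group; the symbol shape gives the replicate number and the bar the mean and SD (n = 3), and the dotted line is at 1 CPM. CXCR5 and CXCR4 at 96 h sit higher in all 3 GSK591 libraries than in the 3 vehicle libraries, while S1PR4 stays under 1 CPM in every library.

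After 96 h of GSK591, 3 of the 9 genes tested were higher than in vehicle and none was lower: the confinement receptor S1PR2 and the chemokine receptors CXCR4 and CXCR5. Genes were called at an adjusted p under 0.05 in edgeR's quasi-likelihood test with Benjamini-Hochberg adjustment over all genes tested, and log2 fold changes are GSK591 over vehicle. Of the 13514 genes tested at 96 h, 40.2% were called in either direction, 20.7% higher and 19.6% lower, so a count of 3 of 9 is near the background. By DESeq2 4 were higher and 0 lower, and at an unadjusted p under 0.05 edgeR gave 5 higher and 0 lower. Shares of all genes in those 2 settings are not given here, so these counts are no result about the 9 genes. The median log2 fold change was 0.24 over the 9 genes and 0.00 over all genes. With both libraries numbered 2 left out, 6 of the 9 genes and 8201 genes overall were called.

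S1PR2 had 290, 235 and 285 CPM in the 3 GSK591 libraries, against 224, 190 and 222 CPM in the 3 vehicle libraries at 96 h. All 3 treated libraries lay above all 3 vehicle libraries, although replicate 2 was the lowest of its group in both. The log2 fold change was 0.36 ± 0.09 (SE, adjusted p = 0.0152). The call was lost when GSK591 replicate 1, GSK591 replicate 3 or vehicle replicate 2 was left out (adjusted p between 0.0587 and 0.0603).

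CXCR4 had 453, 317 and 452 CPM with GSK591, against 308, 296 and 298 CPM in vehicle. Replicate 2 of the treated group lay just above the highest vehicle library and far below the other 2 treated ones. The log2 fold change was 0.45 ± 0.12 (SE, adjusted p = 0.0165), or 1.37-fold. Without GSK591 replicate 1, GSK591 replicate 3 or vehicle replicate 2 it was not called (adjusted p between 0.0627 and 0.0676).

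CXCR5 had 147, 131 and 156 CPM with GSK591, against 118, 115 and 119 CPM in vehicle, and the groups did not overlap. Its log2 fold change was 0.31 ± 0.06 (SE, adjusted p = 0.00583), called under all 15 alternatives run. BCL9L, whose exons overlap those of CXCR5, averaged 18.7 ± 4.49 CPM with GSK591 and 12.7 ± 2.29 CPM in vehicle (SD, n = 3 each) and was also higher (0.56 ± 0.18, adjusted p = 0.0387, called in 10 of 15 alternatives); its part in the CXCR5 result was not tested. Non-overlapping groups were found with the treated one above for 25.0% and below for 29.7% of all genes tested at 96 h, and above for S1PR2, CXCR4 and CXCR5 and below for 0 of the 9 genes.

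RGS13 did not pass the test at 96 h. It had 542, 422 and 533 CPM in GSK591 libraries and 450, 391 and 437 CPM in vehicle libraries. Replicate 2 was the lowest of its group in both, and replicate 2 of GSK591 lay among the vehicle values. Its log2 fold change was 0.24 ± 0.10 (SE, adjusted p = 0.0726), and it was called without GSK591 replicate 2 (adjusted p = 0.00246). In all, 5 of 15 alternatives called RGS13. They included DESeq2 (adjusted p = 0.0445), replicate numbers as a block (adjusted p = 0.00757) and all 12 libraries in 1 fit (adjusted p = 0.026). GPR183, the oxysterol receptor that germinal centre B cells turn down, had 1.48, 0.620 and 1.29 CPM with GSK591, against 0.566, 0.658 and 0.799 CPM in vehicle. Replicate 2 again lay among the vehicle values. The log2 fold change of GPR183 was 0.80 ± 0.31 (adjusted p = 0.0669), and 1.14 without GSK591 replicate 2 (adjusted p = 0.00132). It was called in 4 of 14 alternatives, among them the block (adjusted p = 0.0398) and all 12 libraries in 1 fit (adjusted p = 0.0217). GPR183 is a scarce transcript, with a mean of 1.13 CPM in GSK591 at 96 h. Its mean was under 1 CPM in vehicle at 96 h (0.674), GSK591 at 24 h (0.806) and vehicle at 24 h (0.788).

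GNA13, the G protein subunit below S1PR2 and P2RY8, had 665, 633 and 670 CPM with GSK591 and 655, 714 and 659 CPM in vehicle at 96 h. These groups overlapped, and the 95% interval of the log2 fold change ran from -0.16 to 0.10 (adjusted p = 0.693). CCR7 had 4.01, 4.28 and 5.27 CPM with GSK591 and 3.44, 4.93 and 3.70 CPM in vehicle. The groups overlapped too, with an interval from -0.17 to 0.57 (adjusted p = 0.348). S1PR1 averaged 1.38 ± 0.279 CPM with GSK591 and 1.33 ± 0.147 CPM in vehicle (SD, n = 3 each; adjusted p = 0.837). S1PR4, a lymphocyte receptor for sphingosine 1-phosphate, averaged 0.224 ± 0.0421 CPM with GSK591 and 0.235 ± 0.0548 CPM in vehicle (adjusted p = 0.771), under 1 CPM in every group, where depth limits what can be seen. A transcript level in bulk cells cannot tell fewer cells of a kind from less RNA per cell.

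**Figure D2:**
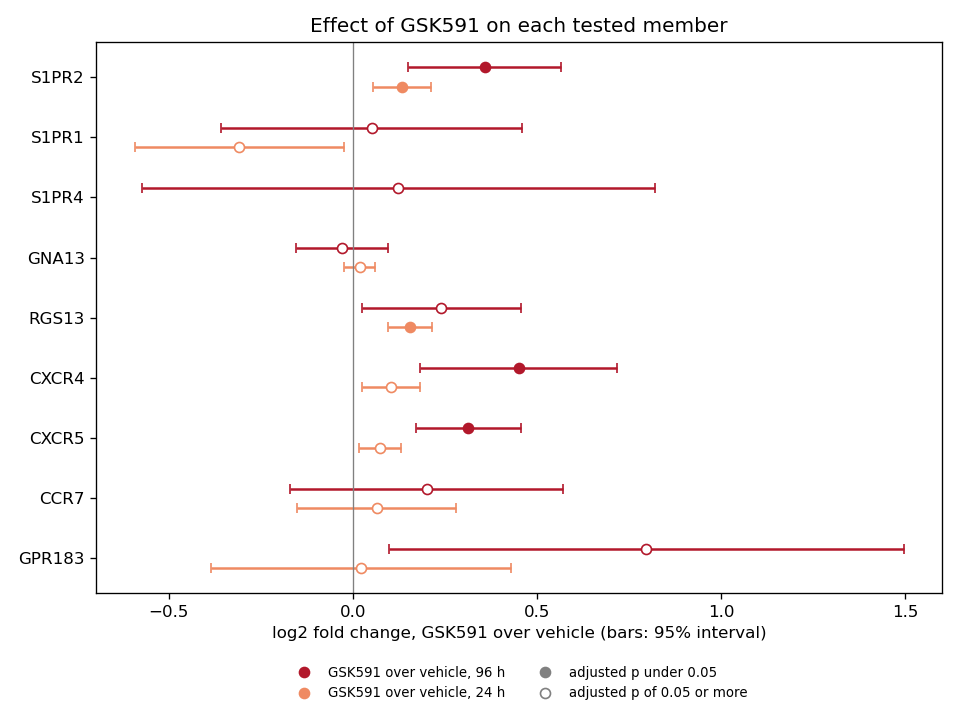
Log2 fold change of GSK591 over vehicle at 96 h and 24 h for each gene tested, with 95% intervals; filled points have an adjusted p under 0.05. At 96 h the intervals of S1PR2, CXCR4 and CXCR5 lie above 0 and their points are filled. Those of RGS13 and GPR183 at 96 h also lie above 0, but their points are not filled. The intervals of GNA13 span 0 at both times.

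**Figure D3:**
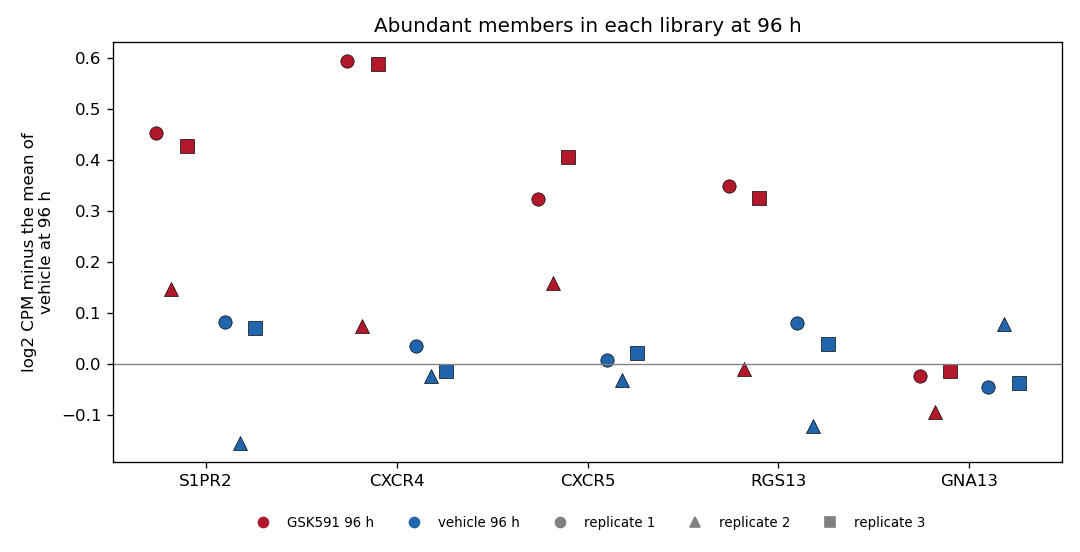
Log2 CPM of 5 abundant genes in each library at 96 h, minus the mean of the vehicle libraries; the symbol shape gives the replicate number. Replicate 2 of GSK591 is the lowest treated library for all 5 genes and is at -0.01 for RGS13.

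At 24 h, 2 of the 8 genes tested were higher with GSK591 and none was lower: S1PR2 and RGS13. Of 13173 genes tested, 14.7% were called in either direction, 7.44% higher and 7.29% lower. By DESeq2 1 was higher and 0 lower, and at an unadjusted p under 0.05 edgeR gave 4 higher and 1 lower, S1PR1. Shares of all genes in those 2 settings are not given here either, so these counts are no result about the 8 genes. The median log2 fold change was 0.07 over the 8 genes and 0.00 over all genes. When the 96 h libraries, with their wider spread, joined the fit, 0 of the 8 genes (0 also at an unadjusted p under 0.05 in edgeR) and 29 genes overall were called.

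RGS13 had 332, 318 and 346 CPM with GSK591, against 304, 287 and 304 CPM in vehicle at 24 h. The groups did not overlap, and the log2 fold change was 0.16 ± 0.03 (SE, adjusted p = 0.00126). In the fit of all 12 libraries its adjusted p was 0.488. S1PR2 had 238, 214 and 238 CPM with GSK591, against 211, 197 and 220 CPM in vehicle. Replicate 2 of GSK591 lay within the vehicle range. The log2 fold change was 0.13 ± 0.04 (SE, adjusted p = 0.0215), and the call was lost in 7 of 13 alternatives, among them leaving out GSK591 replicate 1, GSK591 replicate 3, vehicle replicate 1 or vehicle replicate 2 (adjusted p between 0.0541 and 0.118).

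CXCR4 at 24 h had 436, 390 and 435 CPM with GSK591 and 413, 370 and 389 CPM in vehicle, with overlapping groups (log2 fold change 0.10 ± 0.04, adjusted p = 0.0676). This difference was called in 4 of 13 alternatives, among them replicate numbers as a block (adjusted p = 0.000539). CXCR5 had 121, 123 and 127 CPM with GSK591 and 114, 119 and 120 CPM in vehicle. Those groups did not overlap, but the difference did not pass the test (0.07 ± 0.03, adjusted p = 0.0771) and was called in 1 of 13 alternatives. S1PR1 had 1.75, 1.77 and 1.47 CPM with GSK591, against 2.02, 2.40 and 1.79 CPM in vehicle, also without overlap, and the difference was not called (-0.31 ± 0.14, adjusted p = 0.138). Groups apart with the treated one above were found for 15.7% of genes at 24 h and with the treated one below for 16.2%. Nothing passed for GNA13 (interval -0.02 to 0.06), GPR183 (-0.38 to 0.43) or CCR7 (-0.15 to 0.28). S1PR4 and P2RY8 had too few counts to be tested at 24 h.

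The effect of GSK591 at 96 h minus that at 24 h was tested in 1 fit of all 12 libraries. CXCR5 was the only one of the 9 genes tested whose effect differed, by 0.23 ± 0.07 on the log2 scale (SE, adjusted p = 0.0415), with 24.1% of all genes called in either direction. That call was lost in 12 of 20 alternatives, among them leaving out any 1 library except GSK591 replicate 2 at 96 h. The difference for CXCR4 was 0.33 ± 0.15 and was not called (adjusted p = 0.109); without GSK591 replicate 2 at 96 h it was called (0.48, adjusted p = 7.99e-05).

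Vehicle cells differed with time in 5 of the 9 genes tested, against 47.7% of all genes called in either direction. Libraries of 1 time may share handling, and this cannot be told apart from time in culture. S1PR1 and CXCR4 were lower at 96 h, and RGS13, CCR7 and S1PR4 were higher. CXCR4 had 308, 296 and 298 CPM in vehicle at 96 h, against 413, 370 and 389 CPM in vehicle at 24 h, a log2 fold change of -0.38 ± 0.10 (SE, adjusted p = 0.00778). Every 96 h vehicle library lay below every 24 h one (30.3% of genes tested were apart this way and 30.8% the other way), whereas the GSK591 groups of the 2 times overlapped, with 407 ± 78.6 CPM at 96 h and 420 ± 26.3 CPM at 24 h (SD, n = 3 each). RGS13 averaged 426 ± 31.1 CPM in vehicle at 96 h and 298 ± 9.64 CPM at 24 h (SD, n = 3 each; 0.52 ± 0.08, adjusted p = 0.000137). CCR7 averaged 4.02 ± 0.799 CPM at 96 h and 2.62 ± 0.110 CPM at 24 h (0.59 ± 0.14, adjusted p = 0.00385), and S1PR1 averaged 1.33 ± 0.147 CPM at 96 h and 2.07 ± 0.308 CPM at 24 h (-0.62 ± 0.16, adjusted p = 0.00548). S1PR4 stood at 0.235 ± 0.0548 CPM in vehicle at 96 h, against 0.0512 ± 0.0717 CPM at 24 h, where 8 counts in all were found, and the call (adjusted p = 0.0132) was lost without vehicle replicate 2 or 3 of 24 h. S1PR2 and CXCR5 averaged 212 ± 19.1 and 118 ± 2.29 CPM in vehicle at 96 h, against 210 ± 11.4 and 118 ± 3.26 CPM at 24 h, and were not called.

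Over the 4 groups, ordered by mean, CXCR5 was highest in GSK591 at 96 h, then GSK591 at 24 h, then the 2 vehicle groups, which overlapped each other. S1PR2 was also highest in GSK591 at 96 h and then GSK591 at 24 h, followed by vehicle at 96 h and vehicle at 24 h, and each neighbour overlapped the next. RGS13 followed time first: both 96 h groups lay above both 24 h groups, and at 96 h the treated and vehicle groups overlapped. For CXCR4 the lowest group, vehicle at 96 h, was the only one apart from its neighbour. GNA13 groups overlapped with their neighbours throughout.

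Other genes around these receptors, listed by role, were counted in the same way. Of 9 tested other chemotactic and lipid receptors, 4 were higher and 0 lower with GSK591 at 96 h, with a median log2 fold change of 0.23 against 0.00 over all genes. Of all genes tested 40.2% were called, so this share is near the background, as it is for the 2 lists that follow. DESeq2 gave the same counts, and no receptor was lower at an unadjusted p under 0.05 in edgeR. For DESeq2 and unadjusted p the shares of all genes are not given, so such counts are no result about the lists. In the fit of all 12 libraries 1 receptor was called lower (2 at an unadjusted p under 0.05), and without both libraries numbered 2 it was 2. CCR6, the receptor for CCL20, averaged 20.1 ± 3.47 CPM with GSK591 and 13.97 ± 1.97 CPM in vehicle (SD, n = 3 each; log2 fold change 0.53 ± 0.14, adjusted p = 0.0168). The call of CCR6 was lost without GSK591 replicate 1, GSK591 replicate 3 or vehicle replicate 2 (adjusted p between 0.0631 and 0.0634). GPR132, a receptor for fatty acids and lysolipids, was at 0.566 ± 0.126 CPM against 0.217 ± 0.0822 CPM (1.38 ± 0.28, adjusted p = 0.00634), both under 1 CPM. The other two were GPR18 and the prostaglandin receptor PTGER4, named here after their values were seen, whose calls were lost in 3 of 15 and 5 of 14 alternatives.

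Of 7 tested genes for ligands and ligand handling, 3 were higher at 96 h and 0 lower (by DESeq2 also 3 and 0, and 0 lower at an unadjusted p under 0.05 in edgeR). In the fit of all 12 libraries 0 were called lower and 1 was lower at an unadjusted p under 0.05, and without both libraries numbered 2, 1 was called lower. The 3 higher ones were SPHK2, a sphingosine kinase that makes sphingosine 1-phosphate (0.42 ± 0.08, adjusted p = 0.00459), SPNS2, which exports it (0.58 ± 0.08, adjusted p = 0.00187), and ABCC1, an exporter of glutathione conjugates, whose call was lost in 6 of 15 alternatives. SPNS2 averaged 10.7 ± 0.426 CPM with GSK591 and 7.21 ± 0.287 CPM in vehicle (SD, n = 3 each). CXCL12, CXCL13, CCL19, CCL21, CH25H and GGT5 had too few counts to be tested.

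Among 14 tested RGS proteins, receptor kinases and arrestins, 3 were higher and 2 lower at 96 h. RGS14 was higher (0.51 ± 0.09, adjusted p = 0.00329), and so were RGS18 and GRK3, the last listed under its older symbol ADRBK2 and not called in 7 of 15 alternatives. RGS16 was lower (-0.84 ± 0.11, adjusted p = 0.00143), at 13.6 ± 2.21 CPM with GSK591 and 24.7 ± 1.25 CPM in vehicle (SD, n = 3 each), and so was RGS10, not called in 2 of 15 alternatives. Of 10 transcription factors known to act on these genes, 4 were higher and 1 lower, against the same 40.2% of all genes called in either direction. BACH2, a repressor of plasma cell fate, was at 268 ± 14.4 CPM with GSK591 and 178 ± 6.80 CPM in vehicle (0.60 ± 0.06, adjusted p = 0.00055). IRF4, which drives plasma cell fate and is opposed to BCL6, was lower, at 42.8 ± 0.954 CPM against 60.1 ± 4.69 CPM (-0.47 ± 0.06, adjusted p = 0.0014). BCL6, FOXP1 and TCF3 were the other higher ones, and the calls of BCL6 and TCF3 were each lost in 5 of 15 alternatives.

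**Figure D4:**
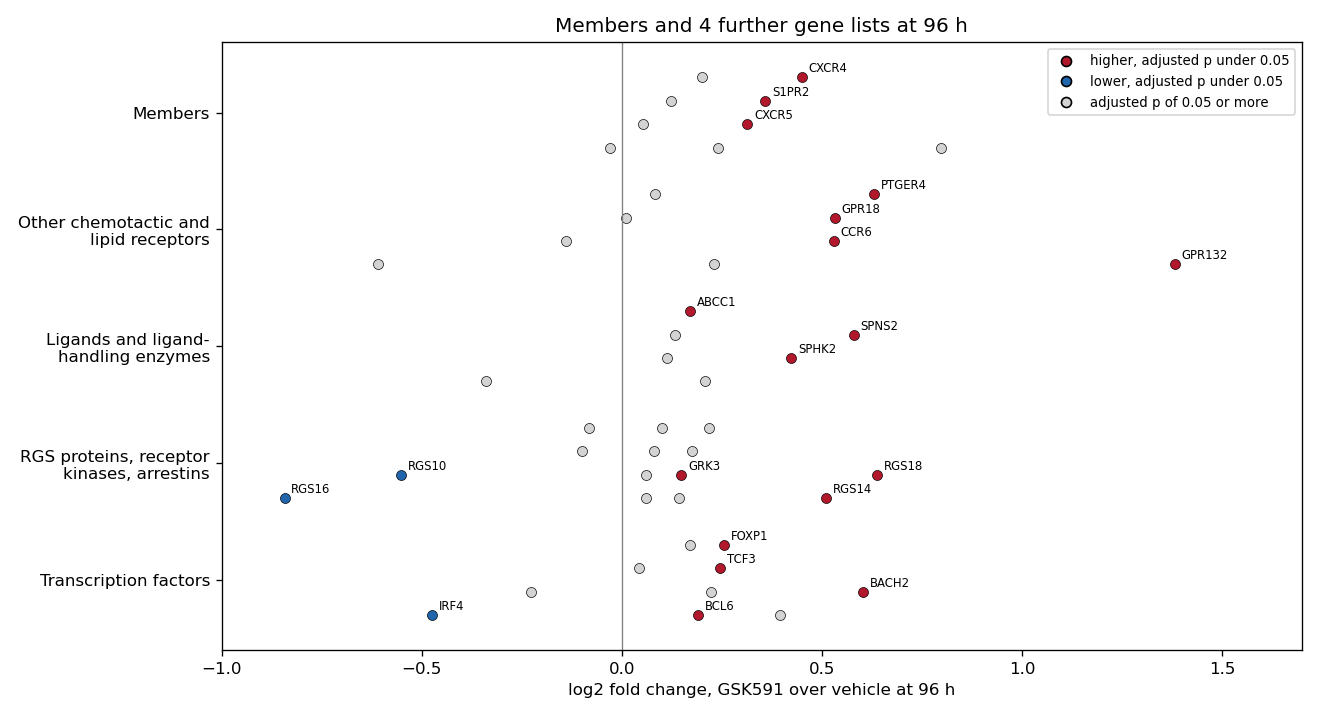
Log2 fold change of GSK591 over vehicle at 96 h for each tested gene of the 9 receptors and partners and of 4 further lists; red points are higher and blue points lower at an adjusted p under 0.05, grey points are not called. The receptor and ligand lists have called genes only above 0, whereas the RGS and transcription factor lists have called genes on both sides.

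At 24 h these 4 lists held 4 called genes, all higher, where 14.7% of all genes tested were called: RGS14 (0.17 ± 0.05, adjusted p = 0.0243), SPHK2 (0.15 ± 0.03, adjusted p = 0.00469), BACH2 (0.15 ± 0.03, adjusted p = 0.0052) and TCF3 (0.11 ± 0.02, adjusted p = 0.00371). The RGS14 call was lost in 7 of 13 alternatives, among them leaving out any 1 library except GSK591 replicate 2 (adjusted p up to 0.407 in the fit of all 12 libraries). The other 3 were each lost in 1 of 13, the fit of all 12 libraries. Of 9 tested receptors of the chemotactic and lipid list, 0 were called by edgeR, 0 had an unadjusted p under 0.05 and 0 were called by DESeq2. GRK6 was not called (adjusted p = 0.0519), and SPNS2, PTGER4 and GPR174 had adjusted p of 0.364, 0.176 and 0.267.

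Across the 12 libraries, the 3 genes whose log2 CPM tracked each called receptor most closely, among 8931 genes, were ABR, RCOR1 and FGFR1 for S1PR2 (r = 0.99, 0.97 and 0.97), ELMO1, C7orf42 and EPC2 for CXCR4 (r = 0.98 each) and VPREB3, INPP5K and SASH3 for CXCR5 (r = 0.98, 0.97 and 0.97). The points share 4 groups and their depth, so this is a description only.

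In the authors' deposited table, 5 of the 9 genes had an FDR under 0.05 at 96 h and 1 of 8 at 24 h. The share of all genes under that FDR is not given here, so these counts are no result about the 9 genes. In the fits made here, 40.2% of all genes tested were called at 96 h and 14.7% at 24 h. At 96 h these included RGS13 (0.0498) and GPR183 (0.0335) in the authors' deposited table, which were not called here. At 24 h S1PR2, called here, had an FDR of 0.109 in the authors' deposited table. All 17 log2 fold changes had the same sign as here, with a largest difference of 0.025.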

How the data were processed

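Messenger RNA of 12 SUDHL6 libraries was counted per gene. The authors deposited raw read counts per symbol, 1 table for each time. The authors also deposited log2 fold changes and p-values with adjusted values for each time, per the file headers. STAR, HTSeq and edgeR and build hg19 (GRCh37) were used, per the submitters' processing notes, with versions, annotation and strand setting not given in the sources used here. From the counts, each time was fitted on its own 6 libraries with edgeR 4.0.16 in R 4.3.3 (filterByExpr, TMM factors, quasi-likelihood test, two-sided, Benjamini-Hochberg adjustment over all genes tested, threshold 0.05). The change of effect and the vehicle comparison came from 1 fit of all 12 libraries. DESeq2 1.42.0 and the other settings of the closing section were alternatives. CPM use TMM factors over 12 libraries, and log2 CPM a prior count of 2. A standard error is the size of the log2 fold change over the square root of F. Levels per kb use GENCODE v29 exons. The fits were tested on simulated data with changes larger than those of the members called with GSK591, so changes of their size were not covered. The 12 replicate pairs had a chi-square per degree of freedom between 2.2 and 39.8, so none agreed within sampling noise. The 95% intervals of fold changes include the spread among libraries, floors (3 counts) cover counting error only, and deeper libraries give the firmer values of scarce genes. All members are named, with the 2 tested genes of smallest p in each further list at each time and the 3 genes most alike each receptor called at 96 h. BCL9L and other list genes were named after their values were seen. The members and lists were chosen with earlier results of these data known. ACKR4 matched no symbol. 1 further gene list is not reported here.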

Additional observations from a re-analysis of the deposited data

Results flagged for a closer look

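The effect of GSK591 differed between 96 h and 24 h for CXCR5 and for 11 genes named from the further lists, by the test of the difference itself (edgeR, all 12 libraries, 96 h minus 24 h on the log2 scale, adjusted p under 0.05). Of all genes tested, 24.1% were called for this difference. The 11 genes had been named for a small p or a call at 24 h or 96 h in these same libraries. Their number is therefore raised by that choice and is no result about the lists. For CXCR5 the difference was 0.23 ± 0.07 (SE, adjusted p = 0.0415). The receptors GPR132 and CCR6 differed by 1.67 ± 0.45 (adjusted p = 0.0186) and 0.51 ± 0.16 (adjusted p = 0.0339). SPNS2, the exporter of sphingosine 1-phosphate, differed by 0.69 ± 0.13 (adjusted p = 0.00281), and the kinase SPHK2 by 0.26 ± 0.09 (adjusted p = 0.0467). The RGS genes RGS14 and RGS16 differed by 0.33 ± 0.10 (adjusted p = 0.0321) and -0.79 ± 0.14 (adjusted p = 0.00241). RGS18 and RGS10 differed by 0.55 ± 0.17 (adjusted p = 0.0344) and -0.48 ± 0.16 (adjusted p = 0.0451), and the exporter ABCC1 by 0.18 ± 0.06 (adjusted p = 0.0385). The transcription factors BACH2 and IRF4 differed by 0.44 ± 0.07 (adjusted p = 0.00155) and -0.49 ± 0.08 (adjusted p = 0.00121). Many of these calls were lost in other settings. Out of 20 alternatives, RGS10 was lost in 13, CXCR5 in 12, and SPHK2 and ABCC1 in 11 each. RGS14 was lost in 10 of 20, CCR6 and RGS18 in 8 of 20 each, and GPR132 in 2 of 18.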

How the results depend on the processing

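Over 35 results of the 9 tested genes, 582 alternative values were computed: 503 kept their direction and their side of the threshold, 28 lost a call, 25 gained one, and 26 changed sign. None of those 26 was called in either fit. Where no cause is shown by how an alternative is built, the cause was not tested. Low counts limit what can be seen of S1PR4, S1PR1 and GPR183.

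Members called at 24 h (2) were 1 with library size alone and 1 by DESeq2, and at 96 h (3) were 5 with all 12 libraries in 1 fit. Across the alternatives, between 29 and 2811 of all genes were called at 24 h, against 1940 in the main fit. At 96 h they numbered 3438 to 8201, against 5437, and for the change of effect 1991 to 6022, against 3298. Counts over all genes thus move with the setting too, and a moved count of members is no result about the members. With all 12 libraries in 1 fit at 24 h, 29 genes and 0 members were called, and the higher counts of the RGS, ligand and transcription factor lists were 0, 0 and 0. The same fit at 96 h gave 1 lower in the receptor list. At 24 h, DESeq2 left 0 higher in the RGS list, median ratio factors gave 2 higher in the RGS list, and no filter gave 2 higher in the RGS list and 4 in the transcription factor list. At 96 h, no filter gave 2 higher in the transcription factor list, and a filter of 5 CPM in 3 libraries, which tests fewer genes, gave 2 higher in the receptor list. The change of effect was called for 0 members with no filter, and the vehicle comparison for 2 members with the 5 CPM filter. That filter left S1PR1, S1PR4 and CCR7 untested, and CXCR4 and RGS13 stayed called.

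With both 96 h libraries numbered 2 left out, 8201 genes and 6 members were called at 96 h, with 5 higher in the RGS list, 5 higher and 1 lower in the ligand list and 2 lower in the receptor list, and GNA13 was at 0.025. The change of effect was then called for 6022 genes and 4 members.

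Same-numbered libraries of GSK591 and vehicle had r of 0.60, 0.37 and 0.05 at 96 h for their deviations from the group means. At 24 h the values were 0.08, 0.48 and 0.06. Libraries of different numbers had r from -0.51 to 0.30 at 96 h and from -0.28 to 0.22 at 24 h. Every same-numbered r was positive, but some different-numbered r were higher than the lowest of them. The labels do not state that numbers pair samples, so the main fits left pairing out and the block is an alternative. With the replicate block, 5 members were called at 96 h, 4 at 24 h and 3 for the change of effect. The counts over all genes with the block are not given here, so these counts are no result about the members. At 24 h the block gave 2 higher in the RGS list and 4 in the transcription factor list, and S1PR4 at 96 h was at -0.031.

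Sign changes of uncalled values were S1PR4 at 96 h with vehicle replicate 1 thinned (-0.028), and in the vehicle comparison GNA13 with library size alone (0.00713) and CXCR5 with median ratio factors (-0.00327), DESeq2 (-0.00325) and no filter (-0.00294).

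Leaving out 1 library in turn gave 980 to 2208 genes and 1 to 3 members at 24 h, 3438 to 7485 genes and 1 to 5 members at 96 h, and 1991 to 5712 genes and 0 to 4 members for the change of effect. At 24 h the higher counts were 0 to 1 in the RGS list, 0 to 1 in the receptor list and 2 to 4 in the transcription factor list. At 96 h they were 2 to 5 in the RGS list, 2 to 5 in the ligand list, 1 to 5 in the receptor list and 2 to 4 in the transcription factor list, and the lower counts were 1 to 3 in the RGS list, 0 to 1 in the ligand list and 0 to 1 in the receptor list. Uncalled values ran from -0.15 to 0.13 for GPR183 at 24 h, from -0.088 to 0.18 for S1PR1, -0.24 to 0.24 for S1PR4 and -0.054 to 0.00662 for GNA13 at 96 h, from -0.00175 to 0.28 for CCR7 in the change of effect, and from -0.023 to 0.090 for S1PR2 and -0.023 to 0.014 for CXCR5 in the vehicle comparison.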
